A study of Homo sapiens with 6 samples.

Results

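Immediate early genes and the subunits of AP-1 were examined in SW480 cells after depletion of MORC2. The 10 genes were chosen by name: the FOS family (FOS, FOSB, FOSL1 and FOSL2), the JUN family (JUN, JUNB and JUND), EGR1, DUSP1 and IER2. Earlier results of these data were known when the genes were chosen. All 10 were found in the count table of 56303 genes, and all 10 were among the 21005 genes with enough counts to be tested. SW480 is a human colorectal adenocarcinoma line, grown here in 1640 medium with serum. The control group (shCtrl) carried a nonsilencing hairpin and has the genotype label WT, and the other group (shMORC2) carried a hairpin against MORC2 and is labelled MORC2 knockdown. Both hairpins were brought in by lentivirus and the cells were kept as stable clonal lines under puromycin, so 1 hairpin line was compared with 1 control line, and other differences between the lines cannot be told apart from loss of MORC2. Each group had 3 libraries from replicate experiments.

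The libraries held 42092664 to 43434425 counts. MORC2 itself was lower in all 3 shMORC2 libraries, at 30.5 against 47.1 CPM (counts relative to the library total, corrected for composition), with a log2 fold change of -0.63 (edgeR adjusted p 0.000216, SE 0.10). The 8 epithelial markers (EPCAM, KRT8, KRT18, KRT19, KRT20, CDX2, VIL1 and CDH1) all passed the filter on low counts. Their sum ran from 20138.6 to 26178 CPM in shCtrl and from 19183 to 26069.8 CPM in shMORC2, with replicate 1 the lowest in both groups. Of these 8, KRT20 and CDX2 were called higher and 0 lower. Of 8 fibroblast, leukocyte and endothelial markers, 4 passed the filter on low counts. PTPRC, CD3E and CDH5, which define leukocytes and endothelium, had at most 6, 3 and 2 counts in any library. PECAM1, another endothelial marker, had 576 to 860 counts, and the fibroblast marker COL1A1 had 355 to 458. The sum of these 8 ran from 57.1 to 64.2 CPM in shCtrl and from 81.6 to 131.5 CPM in shMORC2. CD68, the only one of them called, went from 34.1 ± 4.60 to 82.4 ± 28.6 CPM (SD, n = 3 each). Their part in the results below was not tested.

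Immediate early genes are transcribed within minutes of a growth signal or stress, without new protein synthesis, from promoters that serum response factor, its ETS partners and CREB already occupy. FOS and JUN proteins pair through leucine zippers into AP-1, which binds DNA as a dimer. JUN proteins pair with each other or with FOS proteins, whereas FOS proteins need a partner. Their transcripts are short-lived, and in colorectal cancer cells the RAS and MAP kinase pathway feeds into them.

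Upstream sequence is shown for FOS, FOSB, JUNB and DUSP1, which fell the furthest together with IER2, whose sequence is not printed. EGR1 is also shown, which was not called, though its control libraries were in the order that all 10 genes had. The sequences are from RefSeq (GRCh38.p14), read 5′ to 3′ on the strand of the gene, and end before the first base annotated as exonic. RefSeq promoter sequence was matched for 9 of the 10 genes, all but FOSL1. Capitals mark matches to the CArG box (the site of serum response factor), to TGACG on either strand (the core of the cyclic AMP response element, whose full form is TGACGTCA) and to the TATA box (TATAAA), whose match in FOS lies beyond the stretch printed.
FOS, chr14:75278678-75278773, plus strand: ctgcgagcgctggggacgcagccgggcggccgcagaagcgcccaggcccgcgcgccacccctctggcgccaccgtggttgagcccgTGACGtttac
FOSB, chr19:45467846-45467994, plus strand: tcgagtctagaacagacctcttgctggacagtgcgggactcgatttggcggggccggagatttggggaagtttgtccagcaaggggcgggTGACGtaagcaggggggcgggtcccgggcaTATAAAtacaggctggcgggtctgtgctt
JUNB, chr19:12791336-12791485, plus strand: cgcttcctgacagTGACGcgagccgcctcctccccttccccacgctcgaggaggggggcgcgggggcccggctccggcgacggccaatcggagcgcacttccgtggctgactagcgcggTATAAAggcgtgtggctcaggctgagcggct
EGR1, chr5:138465329-138465478, plus strand: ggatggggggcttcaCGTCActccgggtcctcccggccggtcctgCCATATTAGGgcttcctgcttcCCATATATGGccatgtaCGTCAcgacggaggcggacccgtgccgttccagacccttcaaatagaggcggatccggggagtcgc
DUSP1, chr5:172771196-172771345, minus strand: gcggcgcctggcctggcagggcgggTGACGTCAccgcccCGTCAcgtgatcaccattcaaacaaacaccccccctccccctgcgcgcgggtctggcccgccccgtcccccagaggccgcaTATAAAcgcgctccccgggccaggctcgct

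In the 300 bases that the RefSeq table holds for each gene (250 before and 50 after the start), TGACG on either strand was found in all 9 of the genes with an entry and in 24.6% of 35116 promoters. The full TGACGTCA, which contains that core, was found in DUSP1 and JUND and in 1.85% of all promoters. Only EGR1 of the 9 held the CArG box, with matches starting 105 and 83 bases before the start, against 1.29% of all promoters. TATAAA on either strand was found in FOS, FOSB, JUNB and DUSP1 and in 11.5% of all promoters. IER2, which also fell, held no match to it. GGGCGG on either strand (the GC box of SP1) was found in 7 of the 9 and in 45% of all promoters. TGACTCA on either strand, the site that AP-1 itself binds, was found in FOSL2 of the 9 and in 4.95% of all promoters. These are matches of letters only, and sequence more than 250 bases before the start was not searched. A gene without a match may hold the site further upstream.

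To learn how the 10 genes differed after MORC2 depletion, 3 shMORC2 libraries were compared with 3 shCtrl libraries. Of the 10 genes, 6 were lower in shMORC2 and 0 were higher at an edgeR adjusted p under 0.05, where 39.5% of all genes tested were called, 19.6% lower and 19.9% higher. FOS, FOSB, JUNB, DUSP1 and IER2 fell to between 42.5% and 52.4% of the control level, and FOSL2 fell to 77.8%. The other 4, FOSL1, JUN, JUND and EGR1, stood at 80.3% to 86.4% of control and were not called. The median log2 fold change of the 10 was -0.65, beside -0.006 over all genes tested. For 5 genes the 3 shMORC2 values lay below the 3 shCtrl values without overlap, as they did for 25.1% of all genes tested.

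**Figure D1:**
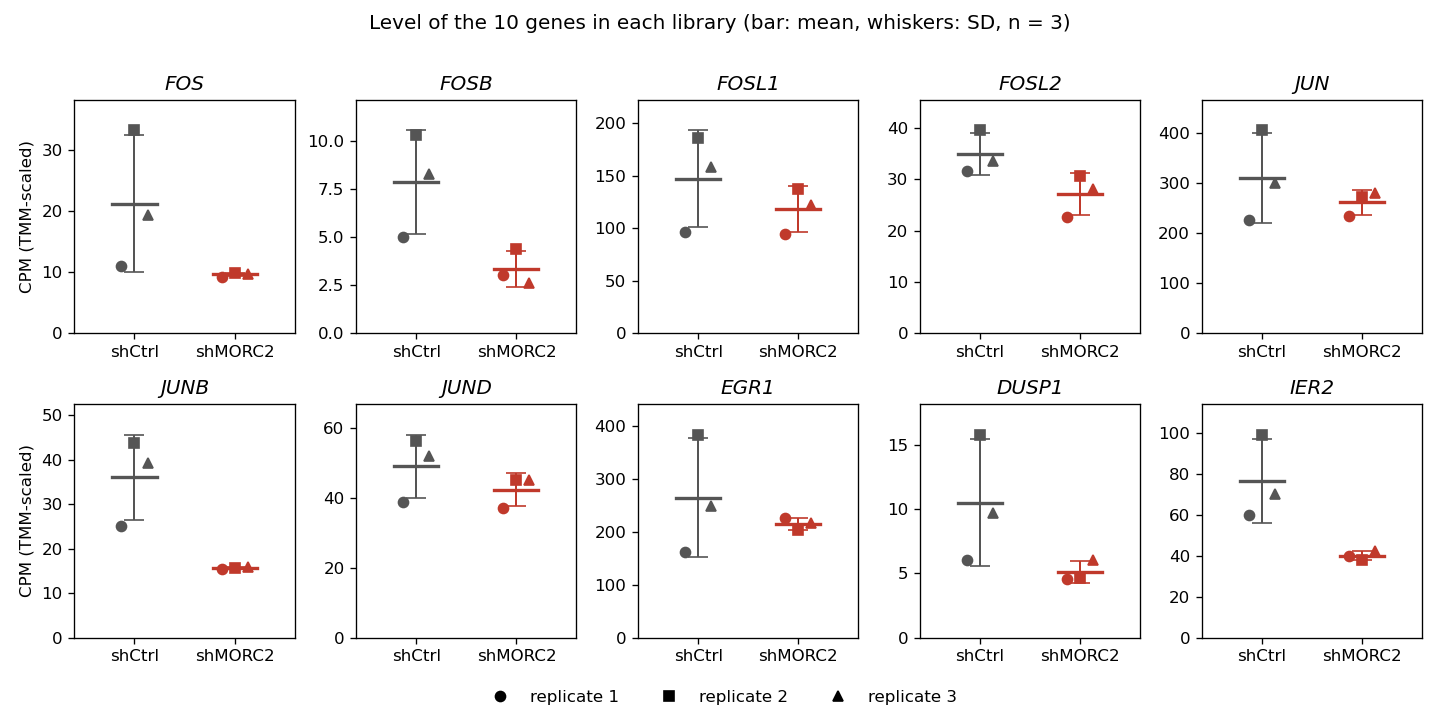
Level of each gene in CPM (vertical axes, each from 0) in the 3 shCtrl (grey) and 3 shMORC2 (red) libraries, with the replicate number as the symbol, the mean as a bar and the SD as whiskers. Replicate 2 is the highest and replicate 1 the lowest shCtrl library in every panel, and the shMORC2 values of FOS, FOSB, FOSL2, JUNB and IER2 lie below all 3 shCtrl values.

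FOS (chromosome 14, 75278774 to 75282230, plus strand, GRCh38), the founding FOS family member, stood at 11.02, 33.3 and 19.45 CPM in shCtrl replicates 1, 2 and 3. In shMORC2 replicates 1, 2 and 3 it stood at 9.31, 9.94 and 9.72 CPM. The control libraries differed from each other by far more than the knockdown libraries did, and the lowest control library was close to the knockdown level. The mean went from 21.3 ± 11.2 to 9.66 ± 0.322 CPM (SD, n = 3 each). FOS thus differed by -1.14 on the log2 scale (edgeR adjusted p 0.00492, SE 0.27), and by -0.66 without shCtrl replicate 2 (edgeR adjusted p 0.0217).

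FOSB (chromosome 19, 45467995 to 45475179, plus strand), a FOS protein also known for its truncated form in neurons, was the least abundant of the 10. It had 219, 436 and 339 counts in shCtrl and 134, 182 and 111 counts in shMORC2. On the CPM scale this was 5.00, 10.3 and 8.24 against 3.02, 4.37 and 2.61, and the groups did not overlap. FOSB had a log2 fold change of -1.24 (edgeR adjusted p 0.00136, SE 0.24).

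FOSL1 (chromosome 11, 65892049 to 65900573, minus strand), which encodes FRA1, was the most abundant FOS family gene. Its shCtrl libraries stood at 96.5, 186 and 159 CPM and its shMORC2 libraries at 94.7, 138 and 122.5 CPM, with overlap. The log2 fold change of -0.32 (95% interval -0.68 to 0.050) was not called (edgeR adjusted p 0.200). It was lower in shMORC2 in all 3 same-numbered pairs, and a fit blocked on replicate number called it lower, at -0.28 (edgeR adjusted p 0.000656). FOSL2 (chromosome 2, 28392448 to 28417312, plus strand), which encodes FRA2, went from 31.6, 39.5 and 33.5 CPM to 22.7, 30.6 and 28.04 CPM. Its groups did not overlap, though the gap between them was narrow. The log2 fold change was -0.36 (edgeR adjusted p 0.0228, SE 0.11), and the call was lost when shCtrl replicate 2, or either of replicates 1 and 3 of shMORC2, was left out, with log2 fold changes of -0.27, -0.25 and -0.38 and edgeR adjusted p of 0.116, 0.0654 and 0.0548.

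JUNB (chromosome 19, 12791496 to 12793315, plus strand) encodes a JUN protein that is a weaker activator than JUN and often restrains growth. Its shCtrl libraries stood at 25.2, 43.7 and 39.2 CPM. Its shMORC2 libraries stood at 15.4, 15.6 and 15.9 CPM, an SD of 0.275 around a mean of 15.6. Of the 10 genes it had the clearest separation, since even its lowest control library was 1.61 times the mean of shMORC2. JUNB differed by -1.20 on the log2 scale (edgeR adjusted p 5.85e-05, SE 0.15). Exons of HOOK2 on the opposite strand overlap JUNB in GENCODE v44, and the strand setting of the counting is not given in the sources used here.

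JUN (chromosome 1, 58780788 to 58784327, minus strand), a core subunit of AP-1, was not called. It stood at 225, 405 and 301 CPM in shCtrl and at 234, 272 and 279 CPM in shMORC2. The shMORC2 libraries lay within the range of the controls. The log2 fold change was -0.25 (95% interval -0.55 to 0.058, edgeR adjusted p 0.229). With the block it was called lower, at -0.21 (edgeR adjusted p 0.0176). JUND (chromosome 19, 18279760 to 18281622, minus strand), the JUN gene that is expressed steadily in resting cells, stood at 38.9, 56.2 and 51.9 CPM against 37.0, 45.04 and 44.97 CPM. Its groups overlapped, and the log2 fold change of -0.21 (95% interval -0.45 to 0.032) was not called (edgeR adjusted p 0.196), whereas the blocked fit called it lower at -0.20 (edgeR adjusted p 0.0148). JUN, JUNB and JUND each have 1 exon in their canonical transcript, so no intron tells spliced from unspliced RNA. An unnamed gene of GENCODE v44 overlaps JUN on the same strand.

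EGR1 (chromosome 5, 138465490 to 138469315, plus strand), a zinc finger factor that is induced through serum response factor, stood at 161, 384 and 249 CPM in shCtrl. Its shMORC2 libraries stood at 226, 203 and 216 CPM, all of them above shCtrl replicate 1 and below shCtrl replicates 2 and 3. The log2 fold change was -0.30 (95% interval -0.71 to 0.11, edgeR adjusted p 0.279). Its sign turned without shCtrl replicate 2, to 0.066 (edgeR adjusted p 0.765).

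DUSP1 (chromosome 5, 172768090 to 172771195, minus strand) encodes a nuclear phosphatase that switches off the MAP kinases which induce it. It stood at 6.05, 15.8 and 9.68 CPM in shCtrl and at 4.58, 4.66 and 6.08 CPM in shMORC2. The groups met at shCtrl replicate 1 and shMORC2 replicate 3. DUSP1 differed by -1.04 on the log2 scale (edgeR adjusted p 0.00644, SE 0.26), and by -0.62 without shCtrl replicate 2 (edgeR adjusted p 0.0369).

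IER2 (chromosome 19, 13150415 to 13154908, plus strand), an early induced nuclear protein, stood at 59.8, 99.1 and 70.3 CPM in shCtrl and at 39.8, 37.98 and 42.5 CPM in shMORC2, without overlap. IER2 differed by -0.93 on the log2 scale (edgeR adjusted p 0.000226, SE 0.14). Unnamed genes on the opposite strand overlap IER2 in GENCODE v44.

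The 3 control libraries were in the same order for all 10 genes, with replicate 2 highest and replicate 1 lowest. Among all genes tested, 20.1% had this order, and 21.6% did among the 14335 genes averaging 100 counts or more. The median deviation of the 10 genes from their group means, in log2 CPM, was -0.51, 0.42 and 0.01 in shCtrl replicates 1, 2 and 3, and -0.11, 0.05 and 0.06 in the shMORC2 replicates. The ratio of shCtrl replicate 2 to replicate 1 was 3.02 for FOS, 2.62 for DUSP1, 2.38 for EGR1 and 2.06 for FOSB, and it was lowest for JUND (1.45) and FOSL2 (1.25). A ratio of at least 1.3, which 9 of the 10 reached, was found in 6.71% of the genes averaging 100 counts or more. The control order and the cutoff of 1.3 were not set before the levels of these genes were seen. The shares beside them are therefore a description and no test. The coefficient of variation in shCtrl ran from 11.8% for FOSL2 to 52.9% for FOS, and in shMORC2 from 1.76% for JUNB to 27.7% for FOSB. It was larger in shCtrl for 9 of the 10, all but FOSL2, against 48.1% of all genes tested and 47.2% of those averaging 100 counts or more.

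**Figure D2:**
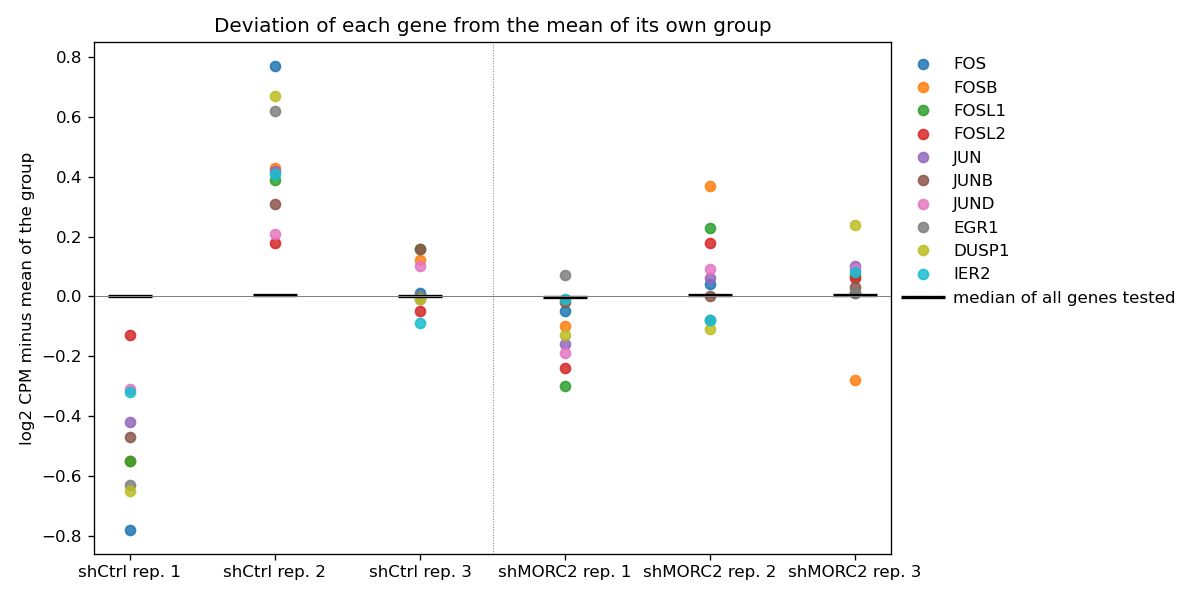
Deviation of each of the 10 genes from the mean of its own group (log2 CPM, vertical axis) in the 6 libraries, 1 colour per gene, with the median of all genes tested as a black bar. All 10 genes lie below 0 in shCtrl replicate 1 and above 0 in shCtrl replicate 2. The median of all genes is near 0 in each library by construction, from the scaling and the centring on the group mean.

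The number of genes called changed with the control library left out. Without shCtrl replicate 1 all 10 were called lower, beside 18.3% of all genes tested. Without shCtrl replicate 2, 5 of the 10 were called lower, beside 14.4%, and these were FOS, FOSB, JUNB, DUSP1 and IER2, with log2 fold changes of -0.66, -0.99, -1.04, -0.62 and -0.70. In that fit JUN stood at -0.01 and JUND at -0.10. With the replicate number as a block 9 were called lower, all but EGR1, beside 24.5% of all genes tested. EGR1 stood at -0.21 in that fit (edgeR adjusted p 0.141).

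**Figure D3:**
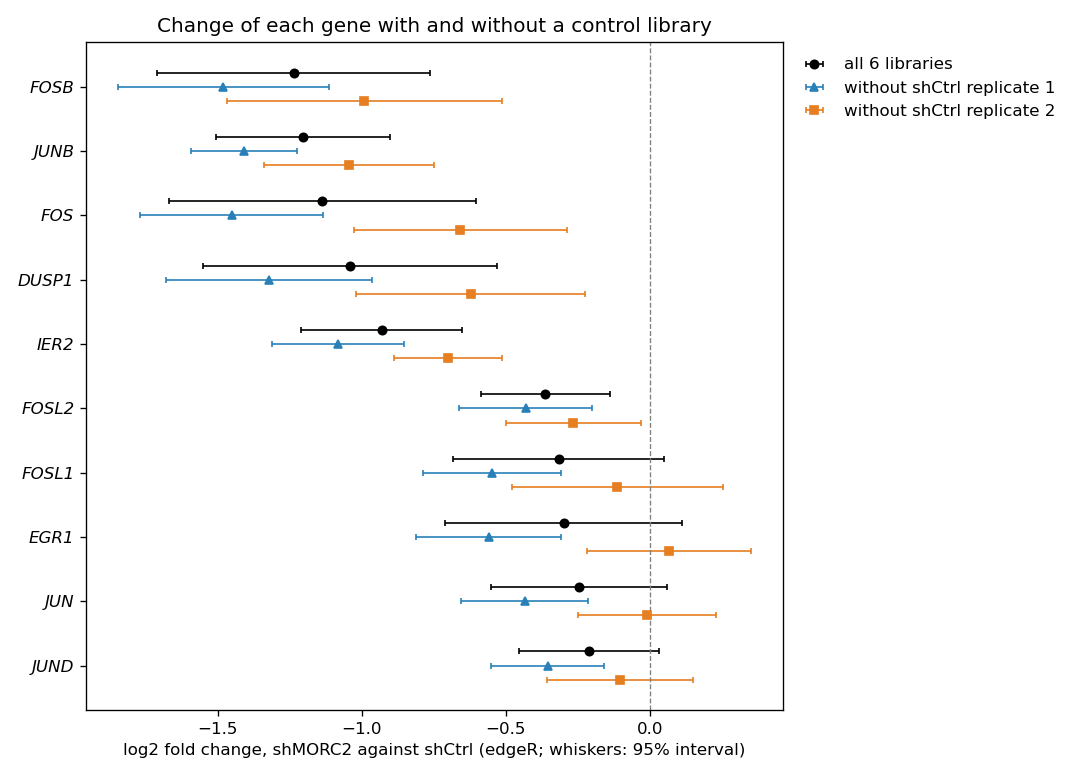
Log2 fold change of shMORC2 against shCtrl with its 95% interval (horizontal axis) for each gene, with all 6 libraries (black), without shCtrl replicate 1 (blue) and without shCtrl replicate 2 (orange). The intervals of FOS, FOSB, FOSL2, JUNB, DUSP1 and IER2 stay below 0 in all 3 fits, and those of FOSL1, JUN, JUND and EGR1 reach 0 with all 6 libraries. The intervals are not adjusted for the number of genes, and FOSL2 was not called without shCtrl replicate 2.

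Levels were compared between genes per length, in the authors' RPKM (counts divided by exon length and library total). In shCtrl, JUN (87.7 ± 25.2 RPKM), EGR1 (84.3 ± 35.6) and FOSL1 (78.0 ± 23.7) were the most abundant, with overlapping ranges (SD, n = 3 each). JUND (26.3 ± 4.53), IER2 (24.9 ± 6.60) and JUNB (19.8 ± 5.07) came next and overlapped as well. FOS (6.56 ± 3.47), DUSP1 (5.21 ± 2.44) and FOSL2 (4.88 ± 0.574) overlapped, and FOSB was lowest at 1.41 ± 0.472. In shMORC2 the first 3 kept their order and still overlapped, at 73.55, 68.3 and 62.3 RPKM. JUND (20.3 to 23.8 RPKM), IER2 (12.1 to 13.7) and JUNB (8.40 to 8.64) no longer overlapped each other. FOSL2 (3.24 to 4.19 RPKM) lay above FOS (2.94 to 3.01), which overlapped DUSP1 (2.26 to 2.98).

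Among the 7 AP-1 subunit genes, JUN and FOSL1 together made up most of the summed RPKM. The sum was 162, 286 and 225.5 RPKM in shCtrl and 154, 187 and 182 RPKM in shMORC2. The share of the JUN family was 59.85% ± 2.06 in shCtrl and 60.2% ± 2.52 in shMORC2 (SD, n = 3 each), with overlap. The share of JUNB, by contrast, was 8.75%, 8.42% and 9.34% in shCtrl and 5.59%, 4.50% and 4.75% in shMORC2. The share of FOS went from 2.15%, 3.61% and 2.60% to 1.90%, 1.61% and 1.63%, and that of FOSB from 0.569%, 0.651% and 0.643% to 0.36%, 0.413% and 0.255%. The groups did not overlap for these 3, a count that has no share over all genes beside it. Those of JUN nearly met, at 36.8% to 40.23% in shCtrl and 40.28% to 43.7% in shMORC2. Shares of a sum depend on each other, so a lower share of some genes raises that of others. The level of JUN itself was not called (log2 fold change -0.25). The shares of FOSL1, FOSL2 and JUND overlapped. For each non-overlapping share the exact two-sided permutation test gave p = 0.10, the smallest value that 3 against 3 libraries allow.

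Levels were also set against EGR1 in the same library, a comparison that was chosen after the levels were seen. JUNB was 15.7%, 11.4% and 15.7% of EGR1 in shCtrl, in CPM, and 6.80%, 7.70% and 7.36% in shMORC2. DUSP1 was 3.75%, 4.12% and 3.89% of EGR1 in shCtrl and 2.03%, 2.30% and 2.81% in shMORC2. FOS was 6.84%, 8.67% and 7.81% of EGR1 against 4.12%, 4.91% and 4.49%. IER2 went from 25.8% to 37.1% of EGR1 in shCtrl to 17.6% to 19.6% in shMORC2, and FOSB from 2.69% to 3.31% to 1.2% to 2.16%. These 5 ratios did not overlap between the groups (exact two-sided permutation p = 0.10 each, the smallest possible), with log2 differences of -0.95, -0.73, -0.78, -0.69 and -1.0. The ratios of FOSL1, FOSL2, JUN and JUND to EGR1 overlapped, with log2 differences of -0.07, -0.15, 0.00 and 0.01. Taken against JUN in place of EGR1, the same 5 ratios did not overlap, with log2 differences from -1.0 for FOSB to -0.69 for IER2. How many of all genes tested separate the groups in such a ratio was not counted, so these counts have no share beside them. The same 5 genes had the largest falls in CPM, so the ratios describe those falls again and are no separate result.

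**Figure D4:**
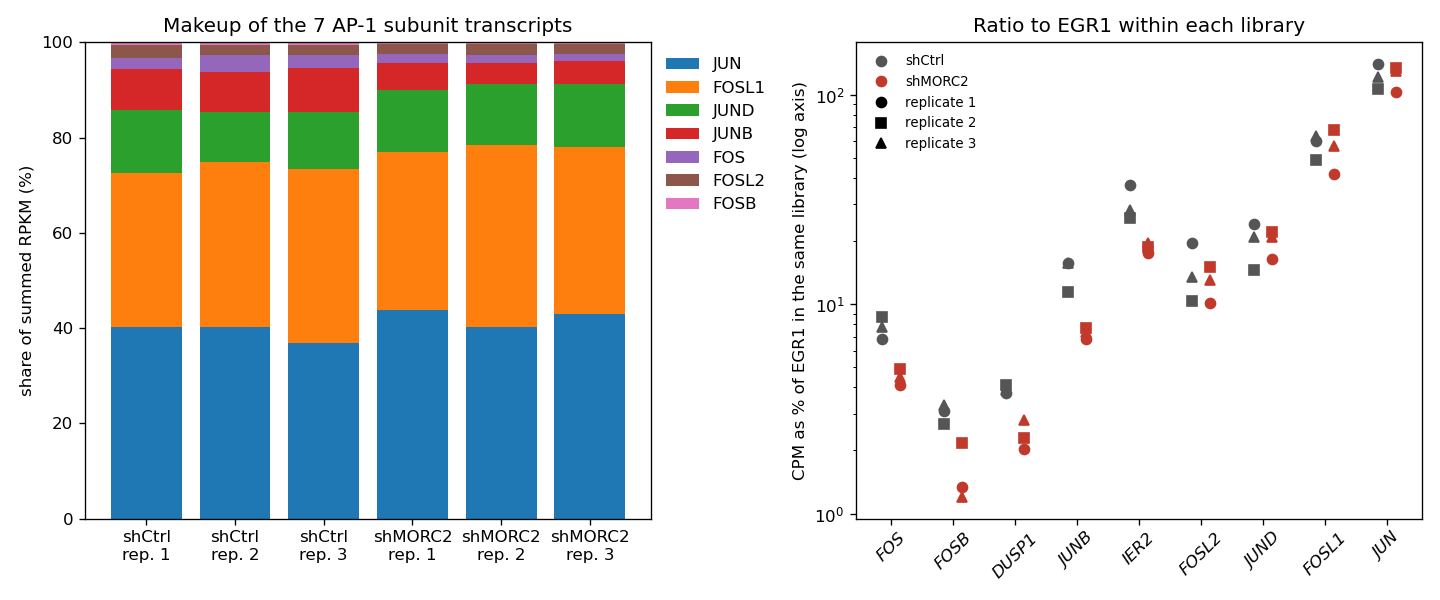
Left, share of each of the 7 AP-1 subunit genes in their summed RPKM (percent, bars stacked to 100) in each library, with JUNB at 8.42% to 9.34% in shCtrl and 4.50% to 5.59% in shMORC2. Right, level of the other 9 genes as percent of EGR1 in the same library (log axis), shCtrl in grey and shMORC2 in red, where FOS, FOSB, DUSP1, JUNB and IER2 separate the groups and the others do not.

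The genes with the closest pattern over the 6 libraries were sought among those 14335 genes, by the Euclidean distance of centred log2 CPM. For FOS they were BHLHE40-AS1 (0.33), PPP1R15A (0.34) and DUSP1 (0.35). PPP1R15A, a stress-induced phosphatase subunit, stood at 119.6, 323 and 213 CPM in shCtrl and at 81.5, 97 and 85.4 CPM in shMORC2, so that it had the order of FOS in the controls. For JUN they were NPC1 (0.16), PDE9A (0.18) and NFATC2 (0.19). For EGR1 they were LINC01012 (0.35), TSC22D3 (0.37) and CXCL8 (0.39). All 6 libraries share the group difference and the control spread, so a short distance is a description only.

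Other basic leucine zipper genes that can pair with FOS or JUN proteins were called in both directions. Of 14 tested, 5 were called lower and 2 higher, with a median log2 fold change of -0.01. The shares over all genes tested were 19.6% lower and 19.9% higher. ATF3, a stress-induced partner of JUN, had 401, 1152 and 478 counts in shCtrl and 305, 313 and 278 in shMORC2, and its log2 fold change was -1.20 (edgeR adjusted p 0.00626, SE 0.30). Without shCtrl replicate 2 it was -0.58 (edgeR adjusted p 0.00964). The small MAF genes MAFK and MAFF fell by 0.70 and 0.65 on the log2 scale (edgeR adjusted p 8.17e-05 and 0.0106), and MAFF was no longer called without shCtrl replicate 2 (edgeR adjusted p 0.0666). BATF, a partner of JUN best known in lymphocytes, rose with a log2 fold change of 0.31 (edgeR adjusted p 0.0188), a call also lost without that library (edgeR adjusted p 0.0823). MAF, named after its value was seen, rose from 2, 4 and 10 counts to 77, 107 and 80 counts (log2 fold change 4.0, edgeR adjusted p 8.76e-06, SE 0.40).

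Of 28 other immediate early genes, 9 were called lower and 1 higher, beside 19.6% lower and 19.9% higher of all genes tested. The median log2 fold change of the 28 was -0.10. With the replicate number as a block, 11 were lower and 4 higher, while the share of all genes called in either direction rose from 39.5% to 49%. ZFP36 and ZFP36L2, which bind AU-rich elements and speed up decay of such messages, fell by 1.27 and 1.23 on the log2 scale (edgeR adjusted p 0.0002995 and 1.49e-06). KLF4, a factor of differentiating epithelium, fell by 1.12 (edgeR adjusted p 2.37e-05). EGR3, a relative of EGR1, rose instead, from 224, 432 and 401 counts to 547, 529 and 494 counts (log2 fold change 0.55, edgeR adjusted p 0.0367). Without shCtrl replicate 1, 0 of the 28 were called higher and 14 lower, where 18.3% of all genes tested were called lower. Of the 28, 20 had the control order of replicate 2 highest and replicate 1 lowest, beside 20.1% of all genes tested.

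Among the other MAP kinase phosphatases of the DUSP1 family, 5 of 9 were called lower and 0 higher, with a median log2 fold change of -0.63. Of all genes tested, 19.6% were called lower and 19.9% higher. DUSP5, which acts on ERK in the nucleus, fell by 1.04 on the log2 scale (edgeR adjusted p 0.00810, SE 0.27), DUSP8 by 0.75 (edgeR adjusted p 0.0247) and DUSP7 by 0.66 (edgeR adjusted p 0.00155). Without shCtrl replicate 2, 2 of the 9 were called lower, beside 14.4% of all genes tested. DUSP5 (edgeR adjusted p 0.0559) and DUSP8 (edgeR adjusted p 0.114) were not among them.

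Of 23 kinases and factors that act on these promoters, 5 were called higher and 5 lower, near the shares over all genes tested (19.9% higher and 19.6% lower), with a median log2 fold change of 0.07. MAPK11, a p38 kinase, rose with a log2 fold change of 1.12 (edgeR adjusted p 0.00134), CREM, a CREB relative, with 0.64 (edgeR adjusted p 0.000930) and MAPK7, which encodes ERK5, with 0.48 (edgeR adjusted p 0.000811). ELK4, an ETS partner of serum response factor, fell by 1.10 on the log2 scale (edgeR adjusted p 1.32e-05, SE 0.12), MAPK14, the main p38 kinase, by 0.70 (edgeR adjusted p 0.000311) and MAP2K4 by 0.47 (edgeR adjusted p 0.0103).

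Of 23 genes often described as AP-1 targets, 17 were tested. Of these, 6 were called higher and 4 lower, with a median log2 fold change of -0.01. Over all genes tested, 19.9% were called higher and 19.6% lower. PLAUR, the urokinase receptor, rose with a log2 fold change of 0.86 (edgeR adjusted p 0.000254), CD44, a hyaluronan receptor, with 0.80 (edgeR adjusted p 0.000310) and TIMP1, a protease inhibitor, with 0.63 (edgeR adjusted p 0.000365). MMP7, an epithelial matrix protease, fell by 1.54 on the log2 scale (edgeR adjusted p 5.79e-05) and VEGFA, an angiogenic factor, by 1.27 (edgeR adjusted p 2.49e-06). MMP3 and MMP10 had 0 counts in every library.

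Heat shock genes, which stress and handling of cells also induce, had in part the same control order as FOS. It was found in 5 of the 8, beside 20.1% of all genes tested. Of 8, 5 were called lower and 0 higher, beside 19.6% lower and 19.9% higher of all genes tested. The median log2 fold change of the 8 was -0.27. HSPA1A had 4603, 13690 and 9519 counts in shCtrl and 1928, 2996 and 2443 in shMORC2. HSPA1B had 8713, 27514 and 18166 counts in shCtrl and 3042, 4635 and 3409 in shMORC2. These near-identical genes of the inducible HSP70, whose reads can be shared between copies, were 3.08 and 3.27 times higher in shCtrl replicate 2 than in replicate 1, and fell by 1.93 and 2.31 on the log2 scale (edgeR adjusted p 0.000222 and 8.15e-05). DNAJB1, a partner of HSP70, fell by 0.61 (edgeR adjusted p 0.0153), with a log2 fold change of -0.34 without shCtrl replicate 2 (edgeR adjusted p 0.0900). The sum of the 8 ran from 5852 to 6292 CPM in shCtrl and from 4652 to 5278 CPM in shMORC2. Most of it came from HSP90AA1, named for its size, at a mean of 3709 CPM in shCtrl. That gene was highest in shCtrl replicate 1, so the sum does not show the spread of HSPA1A and HSPA1B. Without shCtrl replicate 2, 2 of the 8 were called lower, HSPA1A and HSPA1B, beside 14.4% of all genes tested. The part of a stress response in the levels of FOS, EGR1 and the other members was not tested.

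**Figure D5:**
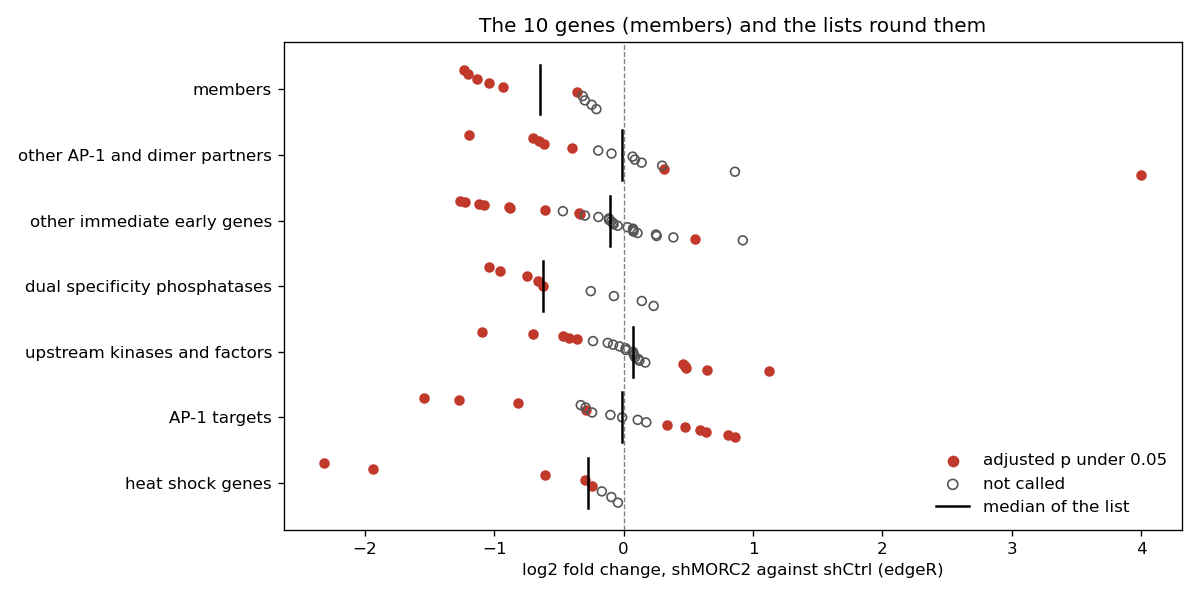
Log2 fold change of shMORC2 against shCtrl (horizontal axis) of each tested gene, by list, filled red at an edgeR adjusted p under 0.05 and open otherwise, with the median of each list as a vertical bar. The medians of the 10 genes (members, -0.65) and of the dual specificity phosphatases (-0.63) lie furthest below 0, and MAF stands apart at 4.0.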

How the data were processed

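Messenger RNA of 6 SW480 samples was sequenced from a stranded kit with molecular identifiers. The authors deposited counts per gene and RPKM, the counts divided by gene length and library total. The submitters' processing notes name Trimmomatic 0.36, STAR 2.5.3a, featureCounts (Subread 1.5.1), edgeR 3.12.1 and GRCh38. The strand setting of the counting and the collapsing of identifiers are not given in the sources used here. Splicing files, which hold the authors' own comparison, were not used. P-values measure the spread between replicate experiments of 1 line per group.

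Counts were tested with edgeR 4.0.16 (quasi-likelihood F test, filterByExpr, TMM, group only), with Benjamini-Hochberg adjustment over the 21005 genes tested and a threshold of 0.05. The SE is the log2 fold change divided by the square root of F, and 95% intervals are 1.96 SE. CPM used TMM-scaled library sizes. Scripts were tested on simulated counts in which 200 of 21005 genes were changed, far fewer than the 39.5% called here. With edgeR, 78.6% of changes of 1 and 55.7% of changes of 0.6 on the log2 scale were recovered. Of its 140 calls, 9 were false. DESeq2 1.42.0, limma 3.58.1 on log2(RPKM + 1) and log2(RPKM + 0.1), other filters and scalings, a threshold of 0.01, a replicate block and leaving out each library were alternatives. Replicate pairs differed beyond sampling noise (chi-square per degree of freedom 6.8 to 23.8), so each was counted as 1 replicate. Deviations of libraries with the same number had correlations of 0.333, 0.165 and 0.149, with no other correlation set beside them. The replicate number is not said to be a batch, so the main fit used the group only. The block on that number was an alternative.

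The genes and lists were chosen with earlier results of these data known. Named were the 10 genes, MORC2, the markers, from each other list up to 3 highest and 3 lowest called genes that averaged 50 counts or more, and the 3 closest genes to FOS, JUN and EGR1. A gene that this rule names is not reported here.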

Additional observations from a re-analysis of the deposited data

How the results depend on the processing

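FOS, FOSB, JUNB, DUSP1 and IER2 were called lower in all 15 alternatives, FOSL2 in 11, FOSL1 and JUN in 3 each and JUND and EGR1 in 2 each. Over these alternatives, 11.8% to 24.5% of all genes tested were called lower. Of the 10 genes, 5 to 10 were called when 1 library was left out, beside 29% to 39.2% of all genes tested. All 10 were called without shCtrl replicate 1, beside 36.7%. The log2 fold change of EGR1 was 0.066 without shCtrl replicate 2 (edgeR adjusted p 0.765) and -0.56 without shCtrl replicate 1 (edgeR adjusted p 0.00273). With the replicate number as a block, 9 of the 10 genes and 58 genes of the other 6 lists were called, against 6 and 47 without it, while the share of all genes called rose from 39.5% to 49%. MORC2 was called in all 15, at -0.74 to -0.55. The ratios to EGR1 and to JUN were chosen after seeing the data. The cause of these changes was not tested. FOSB and DUSP1 rest on the fewest counts, 111 and 194 in their lowest libraries.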
